A study of Glycine max with 6 samples.

Results

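The genes described here encode folding helpers of the endoplasmic reticulum (ER) and the NRP proteins of the soybean cell-death response. They were taken as every soybean probe set (a group of probes for 1 transcript) whose platform gene symbol begins with BIP, PDI, CNX, CRT or NRP-. This gave 13 of the 37593 soybean probe sets on the array, for 7 genes: BIP4, BIP2, PDIM-1, PDIL-2, PDIQ-1A, NRP-B and NRP-A. BIP accounted for 3 probe sets, PDI for 7 and NRP- for 3. A symbol beginning with CNX or CRT was carried by 0, so calnexin and calreticulin were not analysed here. No symbol was given for 28546 of the 37593, so further genes of these kinds may be among them. All 13 lay above background on both arrays of at least 1 sample and were tested, and 12 were above it on all 6 arrays.

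BiP is the Hsp70 chaperone of the ER lumen. It binds nascent chains as they enter the ER, and in the seed these include the storage globulins on their way to protein storage vacuoles. Protein disulfide isomerases form and rearrange the disulfide bonds of proteins in the same compartment. When unfolded protein accumulates, plants raise the transcripts of such helpers in the unfolded protein response. The asparagine-rich NRP proteins were described in soybean as a separate branch, in which ER stress and osmotic stress act together to promote cell death. The comparison asked whether transcripts of this machinery differ in lines with an RNAi construct against storage proteins. Protein was not measured, so a lower load of storage protein in the ER was not tested.

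RNA came from whole cotyledons of the soybean (Glycine max) at a weight of 150 mg. The 3 samples were a nontransgenic control, called jack in 1 label, and 2 independent transgenic lines, RNAi line 1 and RNAi line 2, in which an RNAi construct against storage proteins was present. Each sample was measured on 2 technical replicate arrays, 6 in all, so the sample is the replicate and the control is a single one. The promoter and target genes of the construct, and the number of seeds per sample, were not stated in the labels.

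Over all probe sets the median signal ran from 57.8 to 72.4 between arrays, and 26459 to 27396 soybean probe sets per array were above background. The ratio of signal at the 3' end of a transcript to that at its 5' end was 38.1 to 141 for actin, highest on replicate 1 of line 2. For ubiquitin it was 11.4 on control replicate 2 and 0.384 to 1.09 on the other arrays. Its bearing on the probe sets of 1 gene was not tested. Of the cotyledon markers LOX1.1, a seed lipoxygenase, read between 38020 and 52587 on every array, and only the 2 probe sets assigned to CG-1 alone were dim, at 3.17 to 157. The storage protein transcript GY3, a glycinin gene, stood at 17948 and 20903 in the control and between 1640 and 1892 on the 4 RNAi arrays, the largest difference among the cotyledon markers. Other glycinin genes differed less, though GY2 was still far below the control. On the log2 scale GY2 gave -2.734 by Gma.1857.1.S1_at and -1.425 by Gma.1857.1.S1_s_at (each limma adjusted p = 0.0488). CG-BETA-1, a further cotyledon marker, gave -2.05 and -2.175 (each limma adjusted p = 0.0488). Values were smaller for GY1, with -0.99 and -0.84, and for the probe set shared by CG-1 and CG-3, with -0.93. Control and RNAi arrays overlapped for GY5 (-0.26) and GY4 (-0.21 and -0.19). Summed over 11 probe sets of seed coat markers, signals were 24246 and 25486 in the control and 12533 to 14000 in the lines. SCB1, a seed coat gene on that list, went the other way, from 278 and 248 in the control to 1153 to 1258 on the RNAi arrays (log2 difference 2.10, limma adjusted p = 0.0488). Of these probe sets 3, those of Ep, PRP1 and 1 of the peroxidase gene LOC547499, were above background on no array, and the part of seed coat tissue in the results was not tested. In whole tissue, fewer cells of a type and less RNA per cell cannot be told apart. The poly-A control RNAs that are added to a sample had a geometric mean signal of 5538 and 5736 on the control arrays and of 1826 to 1944 on the RNAi arrays. The number of samples, with a single control, limits all comparisons, and the number of arrays limits the precision of all values.

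**Figure D1:**
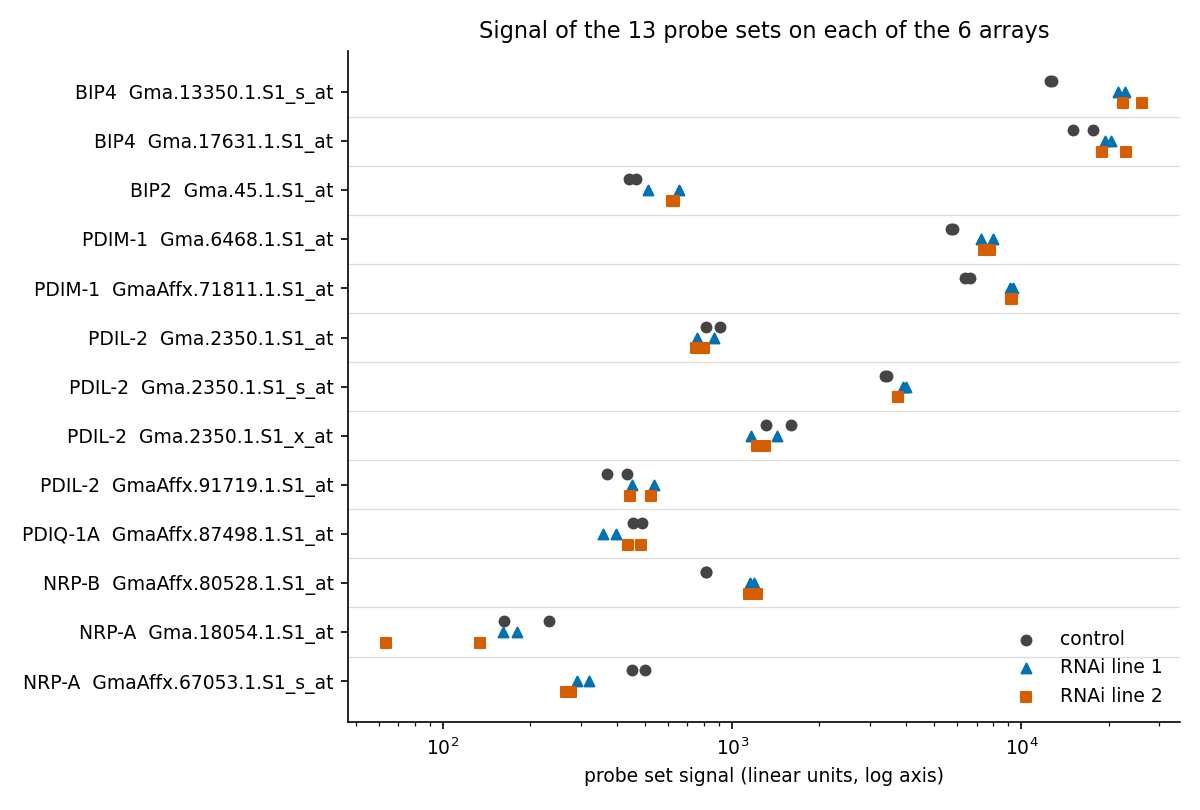
Probe set signal on a log axis for the 13 probe sets, with 1 point per array (circles for the control, triangles for RNAi line 1, squares for RNAi line 2). Signals of BIP4, BIP2, PDIM-1 and NRP-B were higher on all 4 RNAi arrays than on both control arrays at every probe set, and those of NRP-A probe set GmaAffx.67053.1.S1_s_at were lower.

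Across the genes, BIP4, BIP2, PDIM-1 and NRP-B had higher signals in both RNAi lines, and PDIL-2 went both ways between its probe sets. NRP-A had lower mean signals at both probe sets, but at the dim one, Gma.18054.1.S1_at, control and RNAi arrays overlapped. The NRP-A signals turned higher when arrays were set to their poly-A control RNAs. The median log2 difference of all tested probe sets then moved to 1.53. Relative to that median the NRP-A probe sets stayed lower, at -0.67 and -0.70. Signals on all 4 RNAi arrays exceeded both control arrays at 8 of the 13 probe sets, or 61.5%, where 25.9% of all 27460 tested soybean probe sets did. The opposite held at 1 probe set (7.69%), where the share over all tested was 23.6%. The probe sets are not independent, since 4 of the 7 genes have more than 1.

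On the scale of the test, log2(signal + 16), the median difference of the 13 probe sets between the lines and the control was 0.27, against 0.02 over all tested probe sets. It was 0.28 in line 1 and 0.26 in line 2. Without control replicate 1 the median over both lines was 0.17, and it ran from 0.21 to 0.33 without any other single array. With the mean of both lines set against the control, limma called 0 of the 13 at a Benjamini-Hochberg adjusted p below 0.05, where 1.64% of all tested probe sets were called. At an unadjusted p below 0.05 it found 7 of the 13, or 53.8%, against 33.1% of all tested: 6 were higher, where 18.5% of all were, and 1 lower, where 14.7% were. This test rests on 3 sample means and 1 residual degree of freedom. The lack of calls therefore does not show that the signals were alike.

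Each line was also compared with the control on the 6 single arrays, where p-values measure only technical spread. By that test 4 of the 13 probe sets (30.8%) were called in line 1 and 4 in line 2, the same 4 in both, against 14.3% and 15.4% of all tested. These were BIP4 probe set Gma.13350.1.S1_s_at, PDIM-1 probe set GmaAffx.71811.1.S1_at and NRP-B, which rose, and NRP-A probe set GmaAffx.67053.1.S1_s_at, which fell as deposited. With arrays set to the poly-A control RNAs this NRP-A probe set was higher in the lines. Over both lines it then stood at -0.70 relative to the median of all tested probe sets. Both comparisons use the same control arrays. The 4 calls in line 1 went to 0 without either control array or either array of line 1, and to 2 without either array of line 2. In line 2 the 4 went to 0 without either control array or without the line's replicate 2, to 1 without its replicate 1, and to 2 without either array of line 1.

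BIP4, the BiP gene with the most probe sets here, had the largest difference of the 13 at probe set Gma.13350.1.S1_s_at. Its signal was 12546 and 12710 on the control arrays, 22853 and 21577 in line 1, and 22453 and 26097 in line 2. The groups were well apart, with the lowest RNAi array far above the higher control array. The lines stood at 23245 ± 1456 (SD, n = 2 lines), 1.84-fold the control mean of 12628 on the test scale. The log2 difference was 0.88 (SE 0.11, 95% interval 0.53 to 1.22, limma adjusted p = 0.0594). Taken singly, line 1 was 1.76-fold (adjusted p = 0.0161) and line 2 1.92-fold (adjusted p = 0.0114) above the control in limma's test on the arrays. Of all tested probe sets 3.78% had a difference at least as high. Among the 849 with a control signal from 10000 to 30000, where differences spread less and had a median of -0.08, this share was 0.707%.

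At BIP4 probe set Gma.17631.1.S1_at the control arrays read 17655 and 15089, the line 1 arrays 20425 and 19515, and the line 2 arrays 18973 and 22965. Every RNAi array was again above both control arrays, but by less, and the 2 control arrays were further apart. This came to a log2 difference of 0.32 (SE 0.10, 95% interval 0.01 to 0.63, limma adjusted p = 0.143), a 1.25-fold higher level, and 0.44 without control replicate 1 or 0.21 without control replicate 2. It was not called in line 1 (0.29, adjusted p = 0.217) or in line 2 (0.35, adjusted p = 0.146). Within the same range of control signal, 6.83% of probe sets had a difference at least as high.

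The probe sets of BIP4 thus had differences of the same sign but of different size. Their log2 differences lay 0.55 apart over both lines, 0.52 in line 1 and 0.58 in line 2. The gap between the probe sets, taken array by array, did not overlap between control and RNAi arrays. Between the 2 arrays of a sample it moved by 0.25 in the control, 0.02 in line 1 and 0.06 in line 2, so it was larger than the spread between technical arrays. Its spread between samples was not tested. Over pairs at all control signals, a gap of this size was not rare on the array. The pairs were not matched to BIP4 by control signal, and differences spread less at signals like those of BIP4. Over 2570 pairs of tested probe sets that share 1 symbol, from 1340 genes, the median gap was 0.27 and 21.9% of pairs were at least as far apart as those of BIP4. The suffix _s_at marks probes that match more than 1 transcript sequence, and BiP genes are closely alike, so signal at Gma.13350.1.S1_s_at cannot be assigned to BIP4 alone.

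**Figure D2:**
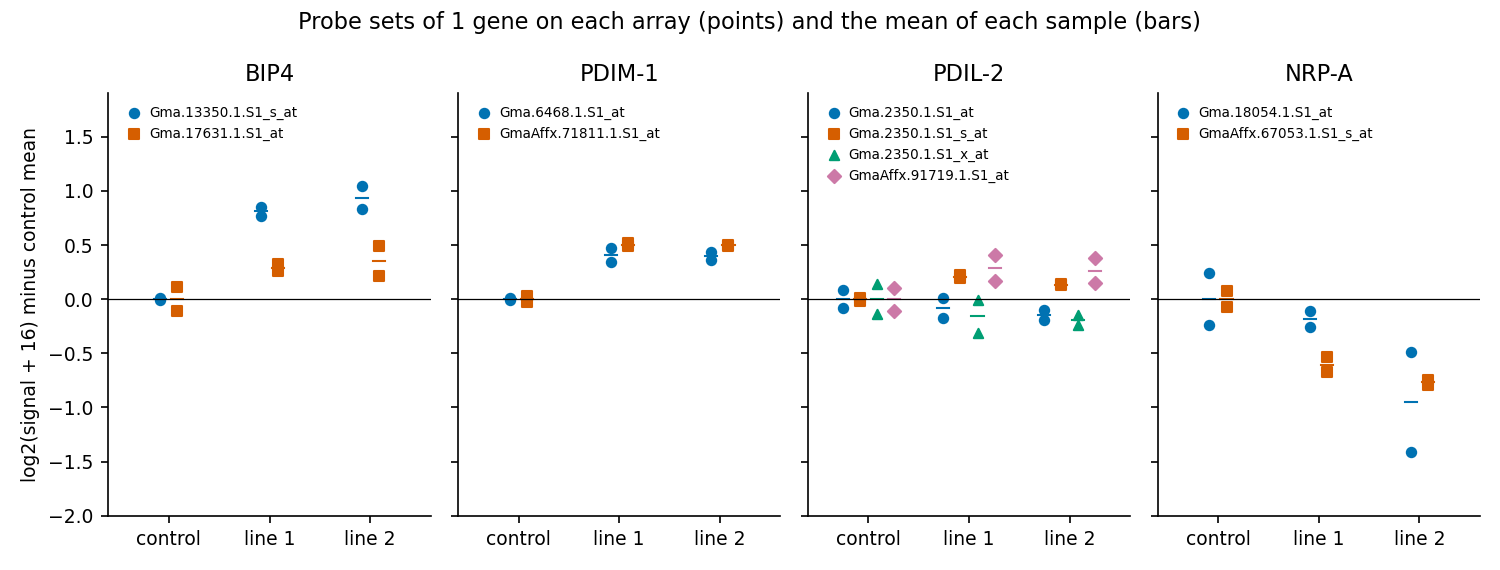
Difference of log2(signal + 16) from the control mean for each probe set of the 4 genes with more than 1, with a point per array and a bar at each sample's mean. The BIP4 probe sets lie 0.52 apart in line 1 and 0.58 in line 2, those of PDIM-1 lie 0.10 apart in each line, and those of PDIL-2 fall on both sides of 0.

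BIP2, a further BiP gene with 1 probe set, read 463 and 440 in the control, 511 and 654 in line 1, and 631 and 617 in line 2. All RNAi arrays were above both control arrays, while the arrays of line 1 were themselves well apart. The lines stood at 603 ± 29.3 (SD, n = 2 lines) against a control mean of 451, a log2 difference of 0.40 (SE 0.11, 95% interval 0.07 to 0.73, limma adjusted p = 0.118). Line 1 gave 0.35, or 0.17 without its replicate 2, and line 2 gave 0.45, neither called.

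Of the disulfide isomerase genes, PDIM-1 differed most and its probe sets were close to each other. At probe set GmaAffx.71811.1.S1_at the signal was 6647 and 6397 in the control, 9334 and 9161 in line 1, and 9240 and 9189 in line 2. The 4 RNAi arrays were nearly level and stood apart from the control arrays. On the log2 scale the difference was 0.50 (SE 0.10, 95% interval 0.20 to 0.80, limma adjusted p = 0.0799), a 1.42-fold higher level, with 0.50 in each line alone (adjusted p = 0.0268 and 0.0266 on the arrays). Probe set Gma.6468.1.S1_at read 5695 and 5788 in the control, 7985 and 7269 in line 1, and 7788 and 7404 in line 2. It too had no overlap between control and RNAi arrays, and its log2 difference was 0.40 (SE 0.10, limma adjusted p = 0.101), with 0.41 and 0.40 in the single lines (adjusted p = 0.0543 and 0.0530). The gap between the probe sets of PDIM-1 was 0.10 in each line, and it moved by 0.06 to 0.11 between arrays of a sample. Among probe sets with a control signal from 3000 to 10000, at most 8.87% had a difference as high as either of PDIM-1.

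PDIL-2 was covered by 4 probe sets, which divided into a pair with higher and a pair with lower signals in the lines. Probe set Gma.2350.1.S1_s_at read 3377 and 3439 in the control, 3909 and 3975 in line 1, and 3733 and 3748 in line 2. The groups did not overlap, but the log2 difference was only 0.17 (SE 0.10, limma adjusted p = 0.330). Probe set GmaAffx.91719.1.S1_at had control signals of 370 and 432 against 535 and 450 in line 1 and 444 and 524 in line 2, a log2 difference of 0.27 (SE 0.10, limma adjusted p = 0.169), or 0.17 without control replicate 1. Here the lowest RNAi array was barely above the higher control array.

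At the other PDIL-2 probe sets the control and RNAi arrays overlapped. Gma.2350.1.S1_at gave 910 and 813 in the control, 758 and 865 in line 1, and 800 and 749 in line 2 (log2 difference -0.12, SE 0.10, limma adjusted p = 0.474). Gma.2350.1.S1_x_at gave 1307 and 1593 in the control, 1162 and 1432 in line 1, and 1301 and 1220 in line 2 (log2 difference -0.18, SE 0.10, limma adjusted p = 0.300). Without control replicate 1 these differences were -0.036 and -0.32, and without control replicate 2 they were -0.20 and -0.036. Gaps between pairs of PDIL-2 probe sets ran in size from 0.06 to 0.45. At 3 of the 6 pairs the array-by-array gap did not overlap between control and RNAi arrays. The widest, between Gma.2350.1.S1_x_at and GmaAffx.91719.1.S1_at, was smaller than the 0.54 by which the same gap moved between the 2 arrays of line 1. The suffix _x_at marks probe sets with probes that can bind unrelated sequences. None of the 4 was called in either line, so no direction is given for PDIL-2.

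PDIQ-1A, with 1 probe set, is the member in which the lines were least alike beside NRP-A. It read 456 and 488 in the control, 395 and 357 in line 1, and 482 and 435 in line 2. Line 1 lay below both control arrays, while line 2 overlapped with them. Its log2 difference was -0.32 in line 1 (SE 0.11, limma adjusted p = 0.119), -0.04 in line 2 (adjusted p = 0.821) and -0.18 over both (SE 0.16, adjusted p = 0.488). Line 1 minus line 2 was -0.28 (SE 0.11, 95% interval -0.56 to 0.01, limma adjusted p = 0.866).

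**Figure D3:**
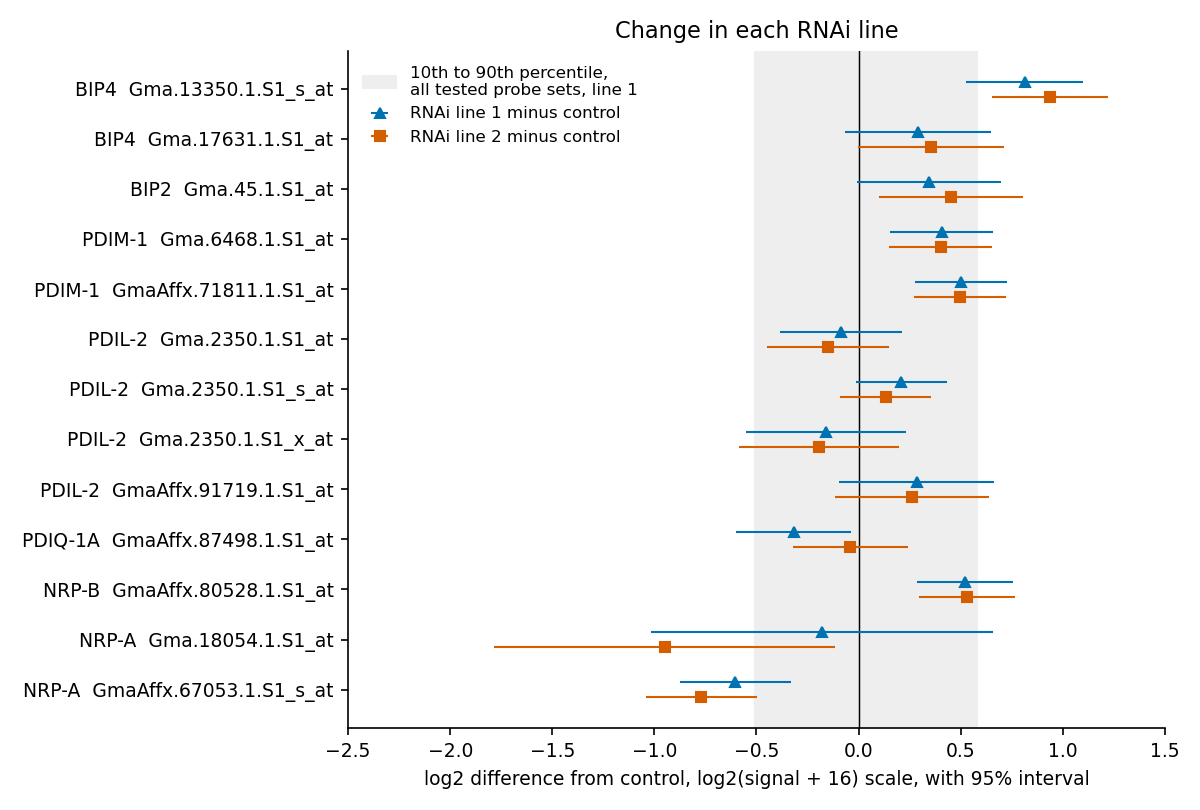
Log2 difference of each RNAi line from the control, on the log2(signal + 16) scale, with 95% intervals from limma on the 6 arrays (technical spread only); the shaded band is the 10th to 90th percentile of all tested probe sets in line 1, -0.51 to 0.58. Gma.13350.1.S1_s_at of BIP4 lies above the band in both lines and GmaAffx.67053.1.S1_s_at of NRP-A below it, at -0.60 and -0.77. With arrays set to the poly-A control RNAs the latter is at 0.91 and 0.74, where the median of all tested probe sets over both lines is 1.53.

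The NRP genes had differences of opposite sign in the signals as deposited, and of 1 sign, higher, with arrays set to the poly-A control RNAs. That scaling moved the median of all tested probe sets to 1.53. Relative to this median the NRP genes kept opposite signs, with 0.55 for NRP-B and -0.67 and -0.70 for NRP-A. NRP-B, with 1 probe set, read 811 and 810 on the control arrays, 1188 and 1156 in line 1, and 1219 and 1141 in line 2. The control arrays agreed within 2 signal units and all RNAi arrays stood clear of them. The log2 difference was 0.53 (SE 0.10, 95% interval 0.23 to 0.82, limma adjusted p = 0.0760), a 1.44-fold higher level. It was 0.52 in line 1 (adjusted p = 0.0267) and 0.53 in line 2 (adjusted p = 0.0249), and the lines differed by no more than 0.01. In the RefSeq gene table BIP4 and NRP-B lie on the same chromosome with 7 gene records between them.

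NRP-A at probe set GmaAffx.67053.1.S1_s_at read 449 and 499 in the control, 321 and 292 in line 1, and 276 and 266 in line 2. All RNAi arrays were below both control arrays, the only such case among the 13. Given the suffix _s_at, this signal may not come from NRP-A alone. The log2 difference was -0.69 (SE 0.13, 95% interval -1.06 to -0.31, limma adjusted p = 0.0745), 1.61-fold lower, with -0.60 in line 1 (adjusted p = 0.0267) and -0.77 in line 2 (adjusted p = 0.0155). Of all tested probe sets 4.93% had a difference at least as low. At NRP-A probe set Gma.18054.1.S1_at the signal was dim, at 163 and 233 in the control, 180 and 161 in line 1, and 63.5 and 134 in line 2, where the first value was below that array's background of 74.2. Arrays of 1 sample differed there by more than line 1 did from the control. At this probe set the log2 difference was -0.56 (SE 0.38, limma adjusted p = 0.362), with -0.18 in line 1 and -0.95 in line 2, neither called. Leaving out control replicate 2 gave -0.33 over both lines, as did leaving out line 2 replicate 1, and with any other single array left out it ran from -0.80 to -0.53. The change of the dim probe set lay 0.42 above that of the brighter one in line 1 and 0.18 below it in line 2, and the gap moved by 0.97 between the arrays of line 2.

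Further soybean genes were read from a list of symbols for NRP signalling, of which 6 probe sets for 4 genes were on the array. ERD15, known in soybean as an activator of the NRP-B promoter, read 1000 and 1102 in the control, 1490 and 1895 in line 1, and 2028 and 1757 in line 2 at probe set GmaAffx.92973.1.S1_s_at. The suffix _s_at applies here too, so the signal may not come from ERD15 alone. All RNAi arrays were higher than the control arrays. This gave a log2 difference of 0.75 (SE 0.13, limma adjusted p = 0.0686), and 0.67 and 0.84 in the single lines (adjusted p = 0.0482 and 0.0288). Its other probe set, Gma.7482.1.S1_at, gave 0.47 (SE 0.12, adjusted p = 0.109), also without overlap, with 0.54 in line 1 (adjusted p = 0.0309) and 0.39 in line 2 (adjusted p = 0.0602).

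NAC6, a transcription factor gene that acts after the NRP genes in cell death, read 789 and 732 in the control, 602 and 527 in line 1, and 614 and 535 in line 2. Its signal was lower on all RNAi arrays, with a log2 difference of -0.41 (SE 0.10, limma adjusted p = 0.0999) that was not called in either line. VPE2 and VPE were listed by symbol alone, as vacuolar processing enzyme genes, a family of proteases with members that carry out such cell death. Whether VPE2 and VPE have a part in it was not tested. VPE2 had -0.54 (SE 0.16, limma adjusted p = 0.126) at Gma.1756.1.S1_at, with a call in line 1 (-0.66, adjusted p = 0.0232) and none in line 2 (-0.41, adjusted p = 0.0643). It had -0.29 at Gma.1756.1.S1_x_at, or -0.19 without control replicate 1, and VPE, at signals of 18247 to 21227 on all 6 arrays, had 0.04 (limma adjusted p = 0.804), or -0.0039 after median centring. With both lines against the control 0 of these 6 probe sets were called by limma, against 1.64% of all tested, and 4 (66.7%) had an unadjusted p below 0.05, against 33.1%. In line 1 there were 3 calls (50%, against 14.3% of all tested) and in line 2 there was 1 (16.7%, near the 15.4% of all tested), and the median difference over the 6 was -0.12. Without either control array, or either array of the line in question, no call was left in that line, and without either array of line 2 there was 1 in line 1. BZIP28, whose number in soybean was not taken to mean the Arabidopsis stress sensor of that name, had -0.39 and -0.40 at its 2 probe sets, neither called. The list of other ER folding and export genes, such as ERO1, DERL and SEC61, matched 0 probe sets by symbol. Since 28546 soybean probe sets carried no symbol, this does not show that such genes were absent from the array.

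**Figure D4:**
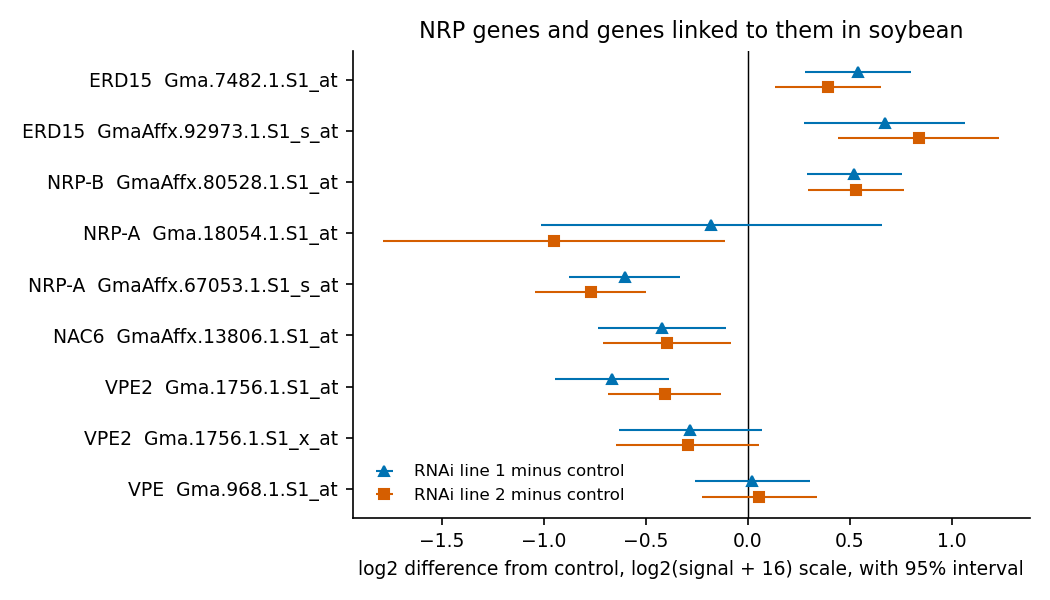
Log2 difference of each RNAi line from the control on the log2(signal + 16) scale, with 95% intervals from limma on the 6 arrays, for the NRP genes and for ERD15, NAC6, VPE2 and VPE, listed with them by symbol. ERD15 and NRP-B lie above 0 in both lines, NRP-A, NAC6 and VPE2 lie below it, and VPE lies within 0.06 of it. With arrays set to the poly-A control RNAs, all of them lie above 0, where the median of all tested probe sets over both lines is 1.53.

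The lines themselves were set against each other on the 6 arrays. Limma called 0 of the 13 probe sets, as it did 0% of all tested, and 0 of the 13 had an unadjusted p below 0.05 against 5.82% of all tested. The widest difference was at Gma.18054.1.S1_at of NRP-A, with line 1 above line 2 by 0.77 (95% interval -0.07 to 1.61, limma adjusted p = 0.883). For PDIM-1 and NRP-B the differences were within 0.01, with intervals that reach at most 0.26 to either side.

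**Figure D5:**
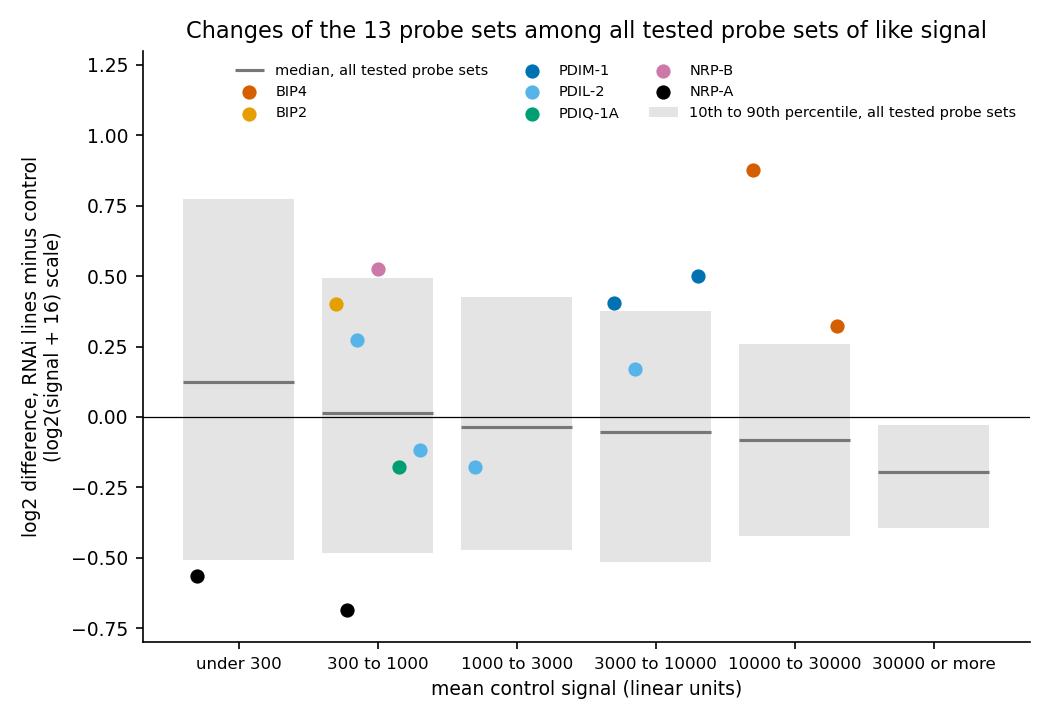
Log2 difference of the RNAi lines from the control for the 13 probe sets (points, coloured by gene) by class of mean control signal, over bars from the 10th to the 90th percentile of all tested probe sets in that class and a line at their median. Gma.13350.1.S1_s_at of BIP4 lies at 0.88 where the 90th percentile is 0.26, and both NRP-A probe sets lie below the 10th percentile of their classes; points are spread sideways within a class for legibility.

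The scaling of arrays bears on the members with lower signals. The 8 probe sets above 0 stayed so under each scaling tried. With each array set to its poly-A control RNAs instead, the median of all tested probe sets moved to 1.53 and that of the 13 to 1.79, so that all 13 were above 0 where 8 were before, NRP-A included. Relative to the median of all tested probe sets, each of the 13 kept its sign under that scaling, with 0.93 and 0.37 for BIP4, 0.55 for NRP-B and -0.67 and -0.70 for NRP-A. Quantile normalization and median centring left 8 above and 5 below 0.

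The genes whose differences in both lines were nearest to those of BIP4 and NRP-A were sought among 1176 tested probe sets with a named gene, by the larger of the gaps in line 1 and line 2. Nearest to Gma.13350.1.S1_s_at of BIP4 were probe sets of CGS2, of methionine synthesis (0.81 and 0.92 in the lines), GSTL3 and SRA2, with gaps of 0.02 to 0.06. Nearest to Gma.17631.1.S1_at of BIP4 were MAPKK2, CYP72A67 and HEMG, with gaps of 0.01 to 0.02. Nearest to GmaAffx.67053.1.S1_s_at of NRP-A were GDH1, SOY69 and CYP71A9 (0.04 to 0.05), and nearest to Gma.18054.1.S1_at were BZIP69, HS1pro1 and ENOD40B (0.12 to 0.17). With 3 samples, many genes can lie this near.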

How the data were processed

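Per the labels, RNA was labelled by a one-cycle method for an Affymetrix array. The authors deposited 1 signal per probe set, a linear intensity. Without the lowest and highest 2% of probe sets, the mean was 500.1 on every array, as found from the values. The software is not given in the sources used here. Symbols came from the platform annotation, and RefSeq (Glycine_max_v4.0) held the gene of all 13 probe sets.

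A soybean probe set was tested if it exceeded the 95th percentile of 23350 probe sets of other organisms on both arrays of at least 1 sample (27460 of 37593). The scale, log2(signal + 16), makes changes at dim probe sets look smaller. Models used limma 3.58.1 in R 4.3.3 (lmFit, eBayes), with Benjamini-Hochberg adjustment over all tested. Both lines were set against the control on 3 sample means (1 residual degree of freedom, prior 2.36), which takes the spread between lines for that of the control. Single lines were compared on 6 arrays (3 residual, prior 2.35).

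The members, all of which are named, the lists, the tests and the alternatives (normalization, filter, pseudocount, moderation, replicate unit and block, left-out arrays) were chosen with earlier results of these data known. Technical replicate numbers did not pair arrays (correlations of deviations -0.0075 to 0.017). The fits were tested on simulated data. Probe, promoter and protein sequences were not used here.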

Additional observations from a re-analysis of the deposited data

How the results depend on the processing

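With both lines against the control, the count of called members was 0 as reported. It was 3 with the stricter background filter (99th percentile), 4 with a pseudocount of 64, 7 with an intensity trend, 5 with arrays as replicates, 7 with duplicateCorrelation (consensus correlation -0.29), 12 with arrays scaled to the poly-A control RNAs, and 0 to 1 with 1 array left out. Over all tested probe sets the corresponding counts were 451 as reported, 3323, 3547, 8517, 5987, 10196, 26508 and 0 to 1884, and 0 after either other normalization (quantile or median), with a pseudocount of 1, with robust moderation or without a filter. With the technical replicate number as a block on 6 arrays, 4 members and 4485 of all tested were called over both lines, 1 and 2201 in line 1, and 3 and 2545 in line 2; the numbers share no deviations, so this is no paired design. In line 1 the 4 called members and 3924 of all became 0 and 1065 without a filter, 13 and 26446 with spike scaling, and 0 to 2 and 329 to 2518 with 1 array left out; an intensity trend gave 6902 of all. In line 2 the 4 and 4226 became 1 and 1132 without a filter, 12 and 26459 with spike scaling, 7 and 7334 with an intensity trend, and 0 to 2 and 527 to 2045 with 1 array left out. Line 1 against line 2 gave 0 throughout. The adjusted p of BIP4 at Gma.13350.1.S1_s_at over both lines ran from 1.643e-05 to 0.193 over 18 alternatives and passed in 8. The gap between the BIP4 probe sets stayed within 0.552 to 0.556 under every scaling and pseudocount tried.

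Spike scaling turned the sign, over both lines, line 1 and line 2 in that order, to 0.86, 1.27 and 0.45 for NRP-A Gma.18054.1.S1_at, 0.83, 0.91 and 0.74 for NRP-A GmaAffx.67053.1.S1_s_at, 1.43, 1.46 and 1.40 for PDIL-2 Gma.2350.1.S1_at, 1.38, 1.40 and 1.37 for PDIL-2 Gma.2350.1.S1_x_at, 1.34, 1.20 and 1.48 for PDIQ-1A, 1.01, 0.88 and 1.14 for VPE2 Gma.1756.1.S1_at, 1.26, 1.26 and 1.25 for VPE2 Gma.1756.1.S1_x_at, 1.13, 1.12 and 1.14 for NAC6, and 1.16, 1.14, 1.17 and 1.13, 1.15, 1.11 for the BZIP28 probe sets Gma.1489.1.S1_at and Gma.1489.1.S1_s_at. Median centring turned VPE to -0.0039 over both lines and -0.020 in line 1, and leaving out an array spread it over -0.015 to 0.094, -0.0022 to 0.048 in line 1 and -0.052 to 0.17 in line 2. With 1 array left out, signs also turned within -0.42 to 0.059 for NRP-A Gma.18054.1.S1_at and -0.18 to 0.0083 for PDIL-2 Gma.2350.1.S1_at in line 1, and -0.11 to 0.032 for PDIQ-1A in line 2. Of line 1 minus line 2, signs turned within -0.28 to 0.067 for BIP2, -0.20 to 0.073 for BIP4 Gma.17631.1.S1_at (0.0065 with quantile normalization), -0.056 to 0.038 for NRP-B, -0.030 to 0.16, -0.12 to 0.18 and -0.10 to 0.14 for PDIL-2 Gma.2350.1.S1_at, Gma.2350.1.S1_x_at and GmaAffx.91719.1.S1_at, and -0.063 to 0.072 and -0.0084 to 0.019 for PDIM-1 Gma.6468.1.S1_at and GmaAffx.71811.1.S1_at. Among the 6 probe sets listed for NRP signalling, the calls ran from 0 to 6 over the alternatives in each comparison with the control. The cause of these moves was not tested, except that leaving out an array lowers the number of arrays. Signals near background, as at NRP-A Gma.18054.1.S1_at, limit precision.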
